A study of Mus musculus with 2 samples.

Results

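The Reg family lectins are secreted proteins built around a C-type lectin fold. The 5 members described here, Reg1, Reg3a, Reg3b, Reg3g and Reg4, were taken by gene symbol from the 32285 genes of the deposited matrices. They were followed through 2 single-cell libraries of control C57BL/6 mice, named control 2 and control 1, which form 1 group. Each library came from the proximal small intestine, as a suspension pooled from an EDTA fraction rich in villi and a TrypLE fraction rich in crypts, and was made with the 10x Genomics 3′ kit, which counts 1 unique molecular identifier (UMI) per captured transcript. The labels give neither sex, age nor treatment of the mice, nor whether a library held more than 1 animal. The title of control 1 names it an M1 control and that of control 2 an M3 control, with the code M3F, which is not explained, and the series text places the controls in a study of the M1 and M3 muscarinic receptors. The members were chosen by their measured UMI levels in these same libraries, including the higher Reg3b of control 2, so those levels are given as descriptions without a test.

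Reg3g is an antibacterial lectin that binds peptidoglycan and helps to keep bacteria away from the small intestinal surface, and Reg3b is its close relative in the mouse. Both are known targets of the cytokine IL-22, which acts on epithelial cells through its receptor and the transcription factor STAT3. Reg1 is best known from the exocrine pancreas and from regenerating epithelium, Reg3a is a further member of the Reg3 branch, and Reg4 is known as a gene of enteroendocrine and other secretory cells. Enterocytes are the absorptive cells, which are born in crypts and move up the villus until they are shed at its tip.

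In the GRCm38 assembly with the GENCODE annotation, 6 genes lay in a span of 98216 bases at chr6:78370657-78468872, and all of them were Reg genes. Reg3b (ENSMUSG00000071356) occupied chr6:78370657-78373466 on the plus strand and Reg3a (ENSMUSG00000079516) chr6:78380709-78383827 on the plus strand. Reg1 (ENSMUSG00000059654) occupied chr6:78422711-78428667 on the plus strand and Reg3g (ENSMUSG00000030017) chr6:78466269-78468872 on the minus strand. Reg4 (ENSMUSG00000027876) stood apart at chr3:98222156-98236748 on the plus strand. No annotated gene overlapped any of the 5. The longest protein-coding transcripts of Reg3b and Reg3g, of 783 and 771 bases, were 74.7% identical over 739 aligned bases, and their longest exact shared run was 35 bases. No stretch of 50 bases was shared between any of the 5 transcripts, so a read matching 50 or more bases exactly belonged to 1 of these transcripts.

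The promoter sides of Reg3b and Reg3g are printed because these 2 genes were the members with the higher levels in control 2. Each line gives 178 bases that end just before the RefSeq transcription start, 5′ to 3′ in the direction of transcription, from chr6:78370707-78370884 on the plus strand for Reg3b and chr6:78468875-78469052 on the minus strand for Reg3g (RefSeq, GRCm38.p6). In the annotation, 24 bases of the Reg3b stretch also lie in an exon of another Reg3b transcript. Capitals mark matches on either strand to the TATA motif TATAAA and to the STAT motif TTCNNNGAA.
Reg3b: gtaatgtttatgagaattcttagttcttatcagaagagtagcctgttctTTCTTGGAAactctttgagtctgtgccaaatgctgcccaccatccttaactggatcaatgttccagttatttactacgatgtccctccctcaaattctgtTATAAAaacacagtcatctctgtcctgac
Reg3g: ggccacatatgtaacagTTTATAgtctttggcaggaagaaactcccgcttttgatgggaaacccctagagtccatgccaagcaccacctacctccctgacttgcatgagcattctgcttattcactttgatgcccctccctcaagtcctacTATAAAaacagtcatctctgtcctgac
The last 20 bases of both stretches were identical. Over the 250 bases before the start, the Reg3b and Reg3g promoters were 70.0% identical. Reg3a was 71.9% identical to Reg3g and 69.9% to Reg3b, and Reg1 was 60.5% identical to Reg3b. For scale, Reg4 on its other chromosome was 60.4% to 63.2% identical to the other members. Positions opposite a gap are left out of these shares. Reg1, Reg3b and Reg3g each held TATAAA, with its first base 30, 29 and 27 bases before the start, and Reg3a and Reg4 had no match in the window. TATAAA occurred in 12.4% of all 32851 promoters of this length. TTCNNNGAA occurred in 7.02% of them, and among the 5 members it was found in Reg3b only, 129 bases before the start. Reg3d, another Reg gene of the chr6 span and not a member, also held a match, 238 bases before the start. A match describes letters in the window and is no evidence of binding.

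Control 2 held 7109 barcodes and 36139325 UMIs, and control 1 held 9342 barcodes and 54451793 UMIs. Cells with at least 500 genes and under 25% mitochondrial UMIs were kept, 4714 in control 2 and 7115 in control 1, and the libraries shared 17 barcode sequences, 8 of them among kept cells of both libraries. Clustering without the Reg genes gave 24 clusters, of which those named from fixed markers include 6 enterocyte-like clusters with 2298 cells in control 2 and 3463 in control 1. Progenitor-like cells numbered 293 and 570 in control 2 and control 1, goblet-like cells 251 and 114, Paneth-like cells 13 and 16, enteroendocrine-like cells 11 and 24, and tuft-like cells 8 and 18. Cluster 10 of the enterocyte-like cells stood apart by depth, with 199 cells of a median 22341 UMIs in control 2 and 245 cells of a median 35595 UMIs in control 1, against medians of 2191 and 2286 UMIs in the other enterocyte-like cells. Its cells had a median mitochondrial share of 15.0% in control 2 and 9.93% in control 1, against 0.168% and 0.161% in the others, and it supplied 46.6% of all enterocyte-like UMIs in control 2 and 52.6% in control 1. The ratios between the libraries and the profiles along the villus are therefore also given for cluster 10 and for the other clusters. Levels are CPM, the UMIs of a gene over all UMIs of a cell population, scaled to a common total, and intervals and floors cover counting error only.

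Reg1, Reg3a, Reg3b and Reg3g were carried by enterocytes. Enterocyte-like cells held 98.6% of the epithelial Reg1 UMIs in control 2 and 98.7% in control 1, while they held 63.3% and 71.1% of all epithelial UMIs. The shares were 97.5% and 97.8% for Reg3a, 97.2% and 97.7% for Reg3b, and 91.1% and 94.2% for Reg3g. Reg4 was the exception, with 83.1% of its epithelial UMIs in enteroendocrine-like cells in control 2 and 91.0% in control 1, although these cells held 1.58% and 1.85% of the epithelial UMIs. Reg2 and Reg3d of the same locus were close to undetected, Reg2 with 2 UMIs in the kept cells of control 2 and 7 in those of control 1, and Reg3d with 7 and 19.

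In enterocyte-like cells Reg1 reached 2874 CPM in control 2 (exact Poisson 95% interval 2843 to 2905) and 5553 CPM in control 1 (5521 to 5585). Reg3b reached 2613 CPM in control 2 (2584 to 2643) and 443 CPM in control 1 (434 to 452). Reg3g stood at 877 CPM in control 2 (860 to 894) and 398 CPM in control 1 (390 to 407). Reg3a was the lowest of the 4 in these sums, at 115 CPM in control 2 and 255 CPM in control 1. The order of the sums thus differed between the libraries. Reg1 and Reg3b lay close together at the top in control 2, whereas in control 1 Reg1 exceeded each of the 3 Reg3 genes more than 10-fold and Reg3b and Reg3g lay close together. The sums rest on few cells: for Reg3b, 14 of 2298 cells in control 2 and 12 of 3463 in control 1 held at least 50% of the UMIs. By detection the order was another in control 1, with Reg3a in 28.4% of cells, Reg3b in 18.2% and Reg3g in 18.9%. The mean over its cells was 229 CPM for Reg3a, 231 for Reg3b and 162 for Reg3g. The sequencing counts 3′ ends, so transcript length does not enter these levels.

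**Figure D1:**
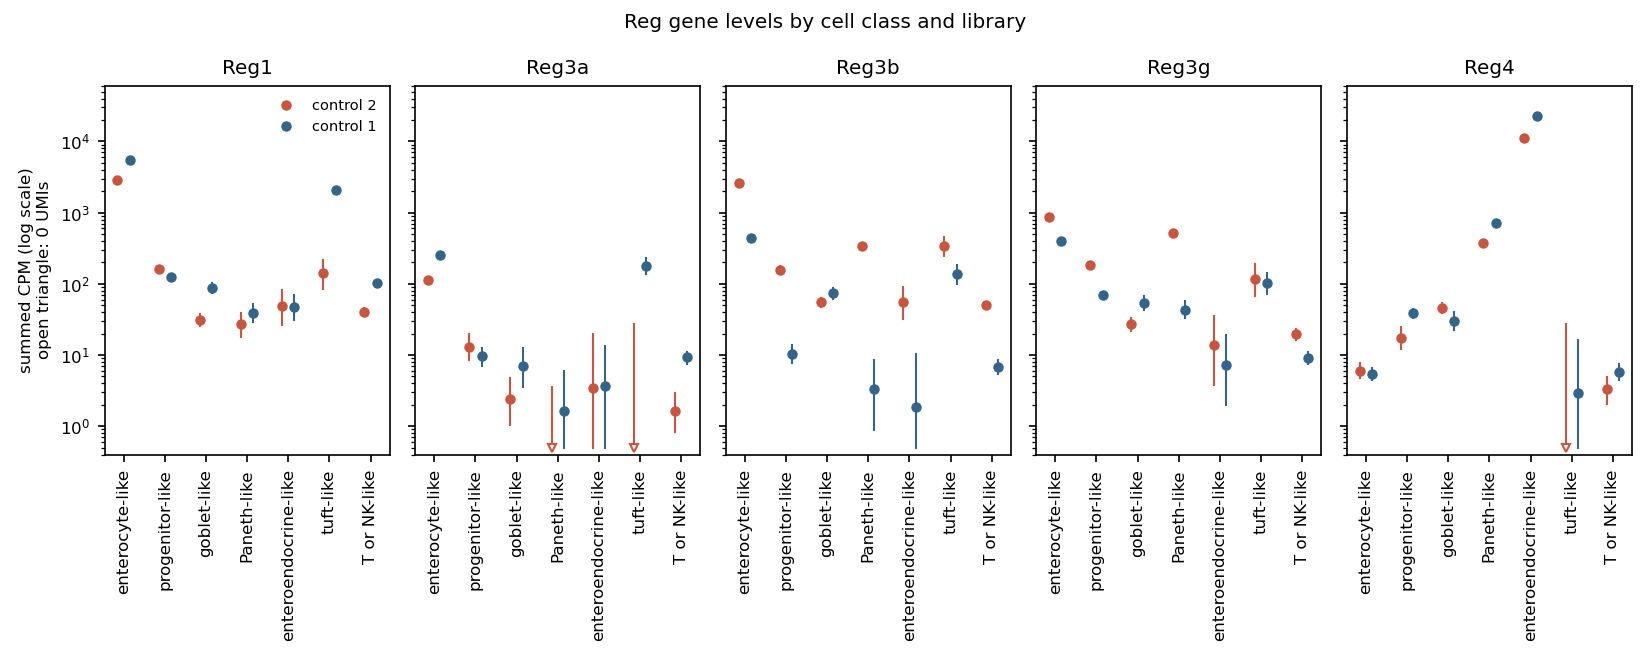
Summed level of each Reg gene (CPM, log scale) by cell class, with control 2 left of control 1; bars are exact Poisson 95% intervals and open triangles mark 0 UMIs. Reg1, Reg3a, Reg3b and Reg3g were highest in enterocyte-like cells in both libraries, while Reg4 was highest in enteroendocrine-like cells at 11049.9 CPM in control 2 and 22965 CPM in control 1.

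Free RNA sets the level below which a Reg UMI cannot be assigned to a cell, and T or NK-like cells, which should lack these genes, give a measure of it. They showed 40.2 CPM of Reg1, 49.9 CPM of Reg3b, 19.6 CPM of Reg3g and 1.64 CPM of Reg3a in control 2. In control 1 they showed 102 CPM of Reg1, 6.85 CPM of Reg3b, 9.16 CPM of Reg3g and 9.25 CPM of Reg3a. Reg3b UMIs per Reg1 UMI were 1.24 in T or NK-like cells and 0.909 in enterocyte-like cells of control 2, and 0.0673 and 0.0797 in the same classes of control 1. Barcodes dominated by hemoglobin gave 0.993 in control 2 and 0.153 in control 1. In all 3 sources the ratio was higher in control 2. Other cells that should lack these genes, such as red cells, gave higher levels. Erythroid-like cells had 97.1 CPM of Reg1 and 164 CPM of Reg3b in control 2, and 236 and 37.0 CPM in control 1. Barcodes dominated by hemoglobin, over their other UMIs, had 493 CPM of Reg1 and 489 CPM of Reg3b in control 2. In control 1 these were 756 and 116 CPM. The T or NK-like level is thus a low measure of free RNA. After thinning to 2000 UMIs a cell, Reg3b was detected in 42.3% of enterocyte-like cells of control 2 and 15.9% of those of control 1, against 7.32% and 1.06% of T or NK-like cells. Unthinned, the shares were 48.1% and 18.2% in enterocyte-like cells (median depth 2347.5 and 2401 UMIs) and 16.8% and 2.99% in T or NK-like cells (median depth 4391 and 5208 UMIs).

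Goblet-like cells were near the T or NK-like level for Reg1 and Reg3a, and for Reg3b in control 2. Their Reg1 was 31.4 CPM in control 2 and 87.3 CPM in control 1, and their Reg3a was 2.39 and 7.06 CPM. Their Reg3b was 54.9 CPM in control 2 (47.3 to 63.5), overlapping the 49.9 CPM (44.7 to 55.5) of T or NK-like cells. In control 1 it was 73.2 CPM, where 2 cells held at least 50% of the 114 UMIs. In Paneth-like cells, the antimicrobial secretory cells of the crypt base, Reg3g reached 523 CPM in control 2 and 43.5 CPM in control 1, and Reg3b 337 and 3.28 CPM. A single barcode carried 386 of the 538 Reg3g UMIs and a single barcode carried 333 of the 346 Reg3b UMIs of the Paneth-like cells of control 2, so these levels describe individual barcodes. The same held for tuft-like cells of control 1, the chemosensory cells, in which 696 of 711 Reg1 UMIs came from 1 cell.

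Progenitor-like cells carried less of each of the 4 genes than enterocyte-like cells. Reg1 was 160 CPM in control 2 and 124 CPM in control 1, and Reg3a 13.1 and 9.54 CPM. Reg3g was 183 CPM in control 2 and 69.7 CPM in control 1, and Reg3b 156 and 10.4 CPM. Their Reg3a and Reg3b in both libraries, and their Reg1 in control 1, did not exceed the levels of erythroid-like cells. Reg3g in both libraries and Reg1 in control 2 did. There were 1.14 Reg3g UMIs per Reg1 UMI in progenitor-like cells of control 2 (0.9745 to 1.34) and 0.563 in those of control 1 (0.491 to 0.644), against 0.487 (0.392 to 0.602) and 0.0901 (0.0732 to 0.110) in T or NK-like cells. The counting intervals of the 2 classes did not overlap in either library, but they do not cover differences between cells, and few cells carried the UMIs. In control 2, 3 of 293 cells held at least 50% of the 335 Reg3g UMIs and 1 cell held 127 of the 293 Reg1 UMIs. In control 1, 8 of 570 cells held at least 50% of the 336 Reg3g UMIs. Reg3b per Reg1 was 0.973 and 0.0838 in progenitor-like cells, close to the 0.909 and 0.0797 of enterocyte-like cells. T or NK-like cells gave 1.24 and 0.0673 and hemoglobin-rich barcodes 0.993 and 0.153. This ratio thus did not separate progenitor-like cells from free RNA.

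Within the enterocyte-like cells the levels were uneven. Clusters 3 and 10 had the most Reg1, at 5001 and 4138 CPM in control 2 and 6279 and 8718 CPM in control 1. They also had the most Reg3b, at 6025 and 3410 CPM in control 2 and 598 and 625 CPM in control 1. Cluster 0, with 984 cells in control 2 and 1247 in control 1, was led by transcripts of small cytosolic proteins such as Fabp2 and Rbp2, carriers of fatty acids and retinol. It had 386 and 514 CPM of Reg1 in control 2 and control 1, and 513 and 176 CPM of Reg3b. Cluster 3 had median depths of 2837.5 and 2168 UMIs in control 2 and control 1, and cluster 0 had 1728 and 1931 UMIs. Apoa1, which encodes another secreted protein, stood at 26366 CPM in cluster 3 of control 2 and 27845 CPM in that of control 1. Whether the state of the cells plays a part in these differences was not tested.

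Reg3b was higher in control 2 in every enterocyte-like cluster. The ratio of control 2 over control 1 was 5.90 over all enterocyte-like cells (counting interval 5.77 to 6.04), 5.46 in cluster 10 and 7.97 in the other clusters. Across the 6 clusters it ran between 2.91 and 10.1, with a median of 6.59. Reg3g followed in the same direction in 6 of 6 clusters, with a ratio of 2.20 over all enterocyte-like cells and 1.91 to 4.19 by cluster. Reg3a went the other way, with a ratio of 0.449 over all enterocyte-like cells and under 1 in 6 of 6 clusters. Reg1 had a ratio of 0.517 over all of them, 0.475 in cluster 10 and 0.869 in the other clusters, and it was above 1 in 2 of 6 clusters. Reg4 had a ratio of 1.11 with an interval of 0.808 to 1.504, but 4.28 (2.64 to 7.12) in cluster 10 and 0.276 (0.148 to 0.481) in the other clusters, at 10.1 CPM or less in each. Clusters 1 and 9 were filled unequally, cluster 1 by 365 cells of control 2 and 1232 of control 1, and cluster 9 by 342 and 105 cells.

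Among 6872 genes with a mean of at least 10 CPM, 4.16% reached a ratio of 2 or more. Of the members, Reg3b and Reg3g reached it, and Reg4, under that mean, was outside this count. A ratio of 0.5 or less was reached by 1 member, Reg3a, against 1.95% of the genes. The ratio of Reg3b was above that of 99.8% of the genes. In cluster 10, Reg3b was the only member with a mean of at least 10 CPM to reach a ratio of 2 (7.06% of 7108 genes did) and Reg1 and Reg3a reached 0.5 or less (6.12%). In the other clusters Reg3b and Reg3g reached 2 (2.2% of 6224 genes) and no member above 10 CPM reached 0.5 (0.916%). With 1 library on each side there is no replicate check, and the mouse, its housing and the preparation of the suspension cannot be told apart.

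**Figure D2:**
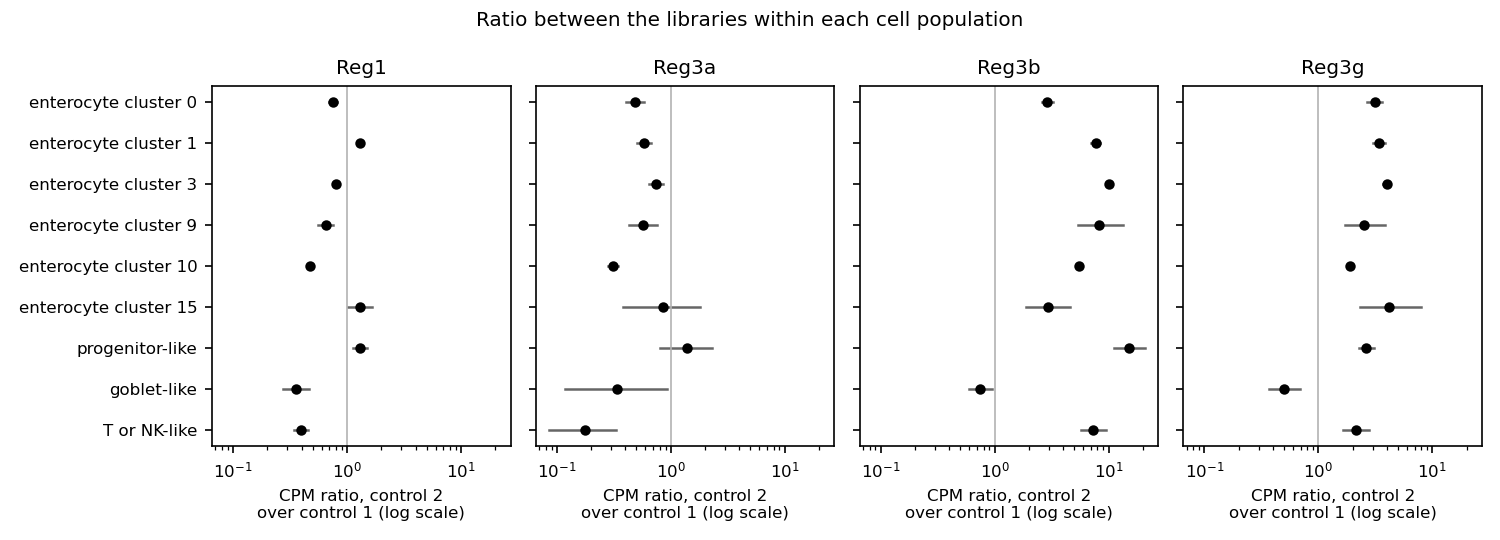
CPM of control 2 over CPM of control 1 (log scale) for 4 Reg genes in each of 6 enterocyte-like clusters, in progenitor-like, goblet-like and T or NK-like cells; bars are counting intervals. All 6 enterocyte-like clusters lie to the right of 1 for Reg3b and Reg3g and to the left of 1 for Reg3a.

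Reg3b UMIs were also higher in control 2 among progenitor-like cells and among T or NK-like cells, a measure of free RNA used above. In progenitor-like cells Reg3b was 156 CPM in control 2 and 10.4 CPM in control 1, a ratio of 15.0 (11.1 to 20.7), while Reg1 had a ratio of 1.29. The control 1 value (7.69 to 13.7) overlapped the free RNA level of 6.85 CPM (5.43 to 8.53) in T or NK-like cells. The control 2 value (138 to 175) lay within the interval of erythroid-like cells of that library (121 to 217). In control 2, 5 of 293 progenitor-like cells held at least 50% of the 285 Reg3b UMIs. Among progenitor-like cells Reg3b and Reg3g reached a ratio of 2, against 1.88% of 8508 genes, and Reg4 one of 0.5 or less, against 1.18%. For Reg4, 1 cell held 20 of 32 UMIs in control 2 and 1 cell held 71 of 188 in control 1. In T or NK-like cells, whose Reg UMIs were taken above as a measure of free RNA, the Reg3b ratio was 7.28 (5.69 to 9.42). Reg3b and Reg3g reached 2 in them, against 0.704% of 8659 genes, while Reg1 reached 0.5 or less, against 0.832%. Reg3a, under a mean of 10 CPM in these cells and so outside that count, had a ratio of 0.178. Goblet-like cells departed in the sum only, with a Reg3b ratio of 0.751 that rests on the few cells of control 1 named above. Counted cell by cell they went the same way as the other classes. A Reg3b UMI was found in 29.9% of goblet-like cells of control 2 and 8.77% of those of control 1. The mean of Reg3b over goblet-like cells was 148 CPM in control 2 and 39.4 CPM in control 1. In the goblet-like sums no member reached a ratio of 2 (1.11% of 6672 genes did). Reg1 reached 0.5 or less in these sums (3.76%), as did Reg3a at 0.338 with a mean under 10 CPM.

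Genes of the IL-22 route were looked at in the same cells. Il22, the cytokine gene, had 0 UMIs in control 2 and 1 UMI in control 1 over all kept cells, and Il17a, another cytokine gene, had 1 and 0, too few to compare. Il22ra1, the epithelial chain of the IL-22 receptor, stood at 21.8 CPM in enterocyte-like cells of control 2 and 7.41 CPM in those of control 1. Stat3 stood at 92.4 and 52.1 CPM, and Socs3, a STAT3 target that damps the signal, at 5.68 and 8.32 CPM. Il10rb, the other chain of the IL-22 receptor, lay close in the libraries at 55.6 CPM (51.3 to 60.1) in control 2 and 59.0 CPM (55.7 to 62.4) in control 1. Il22ra1 and Stat3 were thus higher, Socs3 was lower and Il10rb was about level in the library with more Reg3b. Of 6872 genes in these cells, 4.16% were higher in control 2 by 2-fold or more. These values describe 2 libraries and no test was made.

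To place the genes on the villus, each enterocyte-like cell was given a score, the share of its UMIs of 16 landmark genes that came from the 9 landmarks of the villus tip rather than the 7 of the villus base. Cells with at least 10 landmark UMIs were used, 1631 in control 2 and 2636 in control 1. The score is 0 for base landmarks only and 1 for tip landmarks only. Apob, which encodes the structural protein of chylomicrons and was not used in the score, increased along it. In cluster 10 it had 325, 1027, 1410, 2199 and 4705 CPM in 5 score ranges of equal width in control 2, and 308, 699, 984, 1892 and 3532 CPM in control 1.

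In cluster 10, Reg1, Reg3a and Reg3b were highest at scores between 0.2 and 0.6 and lowest at the tip. In cluster 10 of control 2 Reg1 had 7406, 9855, 12348, 5175 and 538 CPM from the base range to the tip range. In cluster 10 of control 1 it had 9701, 13144, 12846, 8393 and 700 CPM. Both libraries had their lowest Reg1 in the tip range. Reg3b had 4087, 12873, 7388, 6697 and 133 CPM in control 2. It had 271, 1239, 1306, 509 and 67.8 CPM in control 1. Its base range lay under its peak in both libraries. Reg3a had 117, 388, 175, 69.7 and 5.01 CPM in control 2, and 125, 328, 838, 168 and 30.6 CPM in control 1. The first 3 ranges of control 2 rest on 12, 7 and 14 cells, whereas those of control 1 rest on 38, 35 and 26. In the range of 0.2 to 0.4 of control 2, 1 cell held 2821 of 4979 Reg1 UMIs and 1 cell held 4038 of 6504 Reg3b UMIs. The median cell there had 2875 CPM of Reg1, against 4560.5 CPM in the base range, and 9141 CPM of Reg3b, against 2073 CPM. In the same range of control 1, 1 cell held 1223 of 2820 Reg3b UMIs.

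Reg3g had a profile of its own. In cluster 10 of control 2 it had 2542, 2933, 2571, 1638 and 188 CPM from base to tip, and in control 1 it had 1060, 701, 822, 229 and 105 CPM. In the range of 0.2 to 0.4 of control 2, 1 of 7 cells held 1119 of the 1482 Reg3g UMIs, and the median cell had 1261 CPM, against 2319 CPM in the base range. In control 1 its highest value was in the lowest range, where Reg3b had its lowest value below a score of 0.6. Reg4 stayed between 0 and 17.4 CPM in all 5 ranges of cluster 10 in both libraries.

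**Figure D3:**
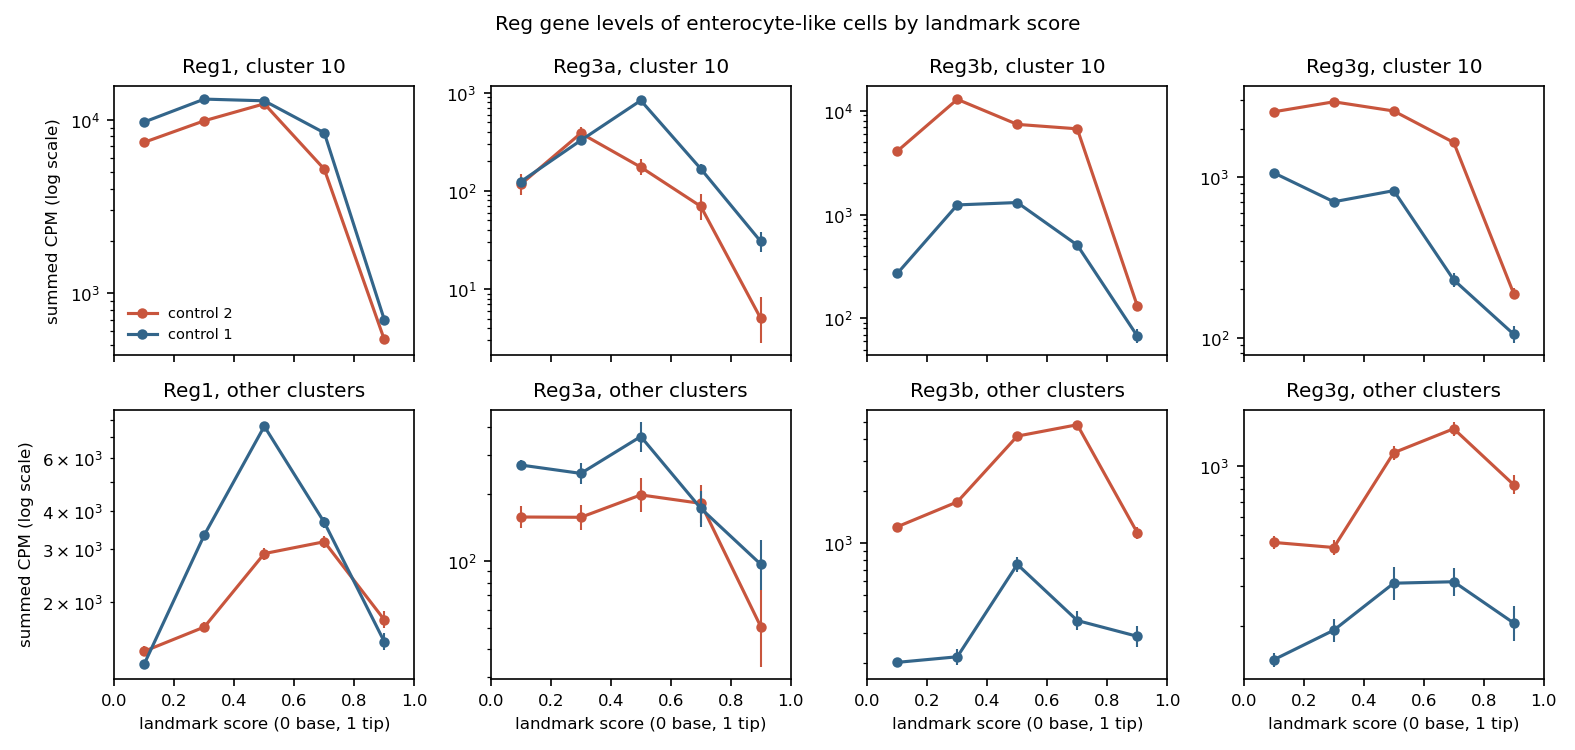
Summed level (CPM, log scale) of 4 Reg genes by landmark score in 5 ranges of equal width, for cluster 10 in the upper row and the other enterocyte-like clusters in the lower row; bars are exact Poisson 95% intervals. Every curve falls between the range of 0.6 to 0.8 and the range of 0.8 to 1, for example Reg3b in cluster 10 to 133 CPM in control 2 and 67.8 CPM in control 1.

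The other enterocyte-like clusters gave a flatter profile by score. Reg1 had 1374, 1652, 2888, 3161 and 1746 CPM in control 2, and 1249, 3329, 7614, 3663 and 1478 CPM in control 1. Reg3b had 1240, 1729, 4164, 4847 and 1147 CPM in control 2, and 203, 218, 750, 354 and 287 CPM in control 1. Both genes were highest between scores of 0.4 and 0.8 and lower again at the tip. In zones of equal cell number of these clusters, however, Reg3b and Reg3g of control 1 were highest in zone 5, at 437 and 296 CPM, while in control 2 they were highest in zone 4, at 3828 and 1186 CPM. Malat1, a nuclear RNA, ran from 4130 to 20939 CPM in cluster 10 of control 2 and from 2338 to 7096 CPM in that of control 1, against 364 to 999 and 220 to 796 CPM in the other clusters. It was highest at the tip in cluster 10, where the median depth was also lowest, at 18167 UMIs in control 2 and 15042 UMIs in control 1, and the part of either in the Reg profile was not tested.

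When all enterocyte-like cells of a library were instead cut into 5 zones of equal cell number, Reg1 and Reg3b peaked in zone 4 of both libraries. Reg1 reached 6305 CPM in zone 4 and 718 CPM in zone 5 of control 2, and 10540.1 and 3610 CPM in the same zones of control 1. Reg3b reached 5876 and 290 CPM in control 2, and 1086 and 263 CPM in control 1. The peak was thus 8.78-fold and 2.92-fold above zone 5 for Reg1, and 20.3-fold and 4.14-fold above it for Reg3b. Cluster 10 made up 2.45% of zone 1 and 44.6% of zone 5 in control 2, and 1.90% and 26.1% in control 1, so these zones differ in cell state as well as in position. A single contrast of zones 4 and 5 with zones 1 and 2 hides the peak. Its log2 ratio for Reg3b was 0.26 in control 2 and 1.33 in control 1 over all cells, -7.18 and -3.46 within cluster 10, and 1.11 and 0.79 in the other clusters. For Reg1 it was 0.08 and 1.36 over all cells, -5.91 and -4.05 within cluster 10, and 0.78 and 1.58 in the other clusters. In zones cut within each set, cluster 10 and the other clusters thus gave opposite directions for both genes. These zones cover unlike scores. In control 2, 145 of 198 cells of cluster 10 scored 0.8 or more, against 178 of 1433 of the others. In control 1 these were 103 of 239 and 215 of 2397. In the fixed score ranges above, both genes fell from a middle peak to the tip in both sets.

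For Reg3b the gap between the libraries was smallest in zone 5. In zone 1 Reg3b stood at 1592 CPM in control 2 and 171 CPM in control 1, a ratio of 9.33. In zone 3 the ratio was 17.6 and in zone 4 it was 5.41. In zone 5 it was 1.10 (1.02 to 1.197), with 290 and 263 CPM. Reg1 and Reg3a had their lowest ratios there, 0.199 and 0.122. When cluster 10 was cut into its own 5 zones, the ratio was above 1 in 2 of them, at 21.4 in zone 1 and 1.74 in zone 2, and between 0.193 and 0.903 in zones 3 to 5. In the 5 score ranges, by contrast, Reg3b was higher in control 2 in every range of both sets of clusters, so the cell ranking of each library enters the zone values.

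For the background of these profiles, genes were compared between zones 4 and 5 and zones 1 and 2 with edgeR's quasi-likelihood test on 4 summed profiles, blocked by library. Of 10580 genes tested, 29.7% were higher and 22.8% were lower in the upper zones (adjusted p under 0.05), so a call alone marks nothing particular. In cluster 10 alone, 10.8% of 9266 genes were higher and 14.2% were lower. The zones were cut on transcripts of the same cells, and the 2 libraries are the only replicates.

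Among 12 genes of IL-22 and STAT3 signalling, 7 were tested, and 6 rose in the upper zones, none fell and 1, Tyk2, did not pass (median log2 fold change 1.34, against 0.08 over all genes tested). Il22ra1 had 39.6 and 2.38 CPM in the upper and lower zones of control 2 and 12.9 and 1.36 CPM in those of control 1, a log2 fold change of 3.66 ± 0.35 (SE, edgeR adjusted p = 2.2e-23). Stat3 had 123 and 57.9 CPM in control 2 and 73.5 and 24.4 CPM in control 1 (1.34 ± 0.27, edgeR adjusted p = 4.6e-06, but 0.0704 without the library block). Socs3 rose by 1.78 ± 0.37 and Il6st, a shared cytokine receptor chain, by 1.59 ± 0.39 on the same scale. In cluster 10 alone 5 of the 7 rose. There Il22ra1 had 81.1 and 20.5 CPM in the upper and lower zones of control 2 and 30.0 and 6.97 CPM in those of control 1, whereas Reg3b had 39.6 and 5863 CPM in control 2 and 74.9 and 835 CPM in control 1.

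Among 13 genes of microbial sensing, 8 were tested, and 2 rose, 2 fell and 4 did not pass (median 0.43). Il18, an epithelial cytokine, had 121 and 442 CPM in the upper and lower zones of control 2 and 262 and 604 CPM in those of control 1, and its log2 fold change was -1.53 ± 0.32 (edgeR adjusted p = 1.3e-05). Nlrp6, a sensor upstream of it, had a log2 fold change of -1.12 ± 0.28. Traf6, an adaptor of Toll-like receptors, rose by 1.02 ± 0.32 and Tlr3, a receptor for double-stranded RNA, by 1.005 ± 0.30. In cluster 10 alone Il18 and Nlrp6 fell and the other 6 did not pass, among them Tlr3 with a log2 fold change of -1.62. Without the library block none of the 4 genes named passed (edgeR adjusted p between 0.0557 and 0.0980).

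Among 23 other genes of epithelial defence, 15 were tested, and 5 rose, 1 fell and 9 did not pass (median 0.37). Dmbt1, a secreted scavenger receptor, had 15.6 and 379 CPM in the upper and lower zones of control 2 and 29.3 and 234 CPM in those of control 1, with a log2 fold change of -3.76 ± 0.32 (edgeR adjusted p = 5.1e-29). Zg16, a lectin of goblet cells, rose by 2.13 ± 0.45 (edgeR adjusted p = 0.0530 without the block) and Itln1, a lectin of Paneth and goblet cells, by 1.82 ± 0.26. Both are markers of other cell types, and the part of their RNA in the enterocyte sums was not tested. Duox2, an enzyme that makes hydrogen peroxide, rose by 1.61 ± 0.54, with 13.8 and 4.09 CPM in the upper and lower zones of control 2 and 0 and 0.170 CPM in those of control 1. Its direction rests on control 2, since the log2 fold change was -0.23 without that library and -0.074 in cells under 10% mitochondrial UMIs. In cluster 10 alone 5 of the 13 tested rose and 2 fell, Dmbt1 with a log2 fold change of -6.88 ± 0.64 and Lypd8, a surface protein that binds flagella, with -3.20.

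Reg3g was detected more often in cells with Reg3b than in cells without it. After thinning to 2000 UMIs, Reg3g was detected in 52.6% of enterocyte-like cells with a Reg3b UMI in control 2 (exact binomial interval 48.4 to 56.8) and in 21.0% of those without (18.2 to 24.0). In control 1 the shares were 41.5% (36.1 to 47.0) and 10.6% (9.23 to 12.2). On the base side of cluster 10 they were 68.8% and 6.90% in control 2, over 77 cells. In control 1 they were 67.7% (48.6 to 83.3) and 45.3% (32.8 to 58.3), over 95 cells. At 1000 UMIs these shares were 71.7% and 33.3% in control 2, and 41.7% and 36.6% in control 1. Unthinned they were 91.5% and 37.5% in control 2, and 89.1% and 83.9% in control 1. The base-side excess of control 1 thus depended on depth. At 2000 UMIs, T or NK-like cells gave 5.13% and 2.53% in control 2. In control 1 they gave 5 of 20 cells with Reg3b and 1.60% of those without. Free RNA and doublets were not told apart in them. The Pearson correlation of Reg3b and Reg3g over enterocyte-like cells was 0.56 in control 2 and 0.41 in control 1, given as a description of cells that share a library.

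Reg1 was detected in 58.4% of cells with Reg3b in control 2 and 66.1% of those in control 1, against 39.9% and 59.4% of cells without Reg3b. In cluster 10 the shares with and without Reg3b were 67.2% and 24.4% in control 2, and 79.5% (64.7 to 90.2) and 67.2% (60.0 to 73.9) in control 1. On the base side of cluster 10 alone they were 79.2% and 41.4% in control 2, but 80.6% and 87.5% in control 1. The excess of Reg1 in cells with Reg3b was thus not seen on the base side of control 1. Reg3a and Reg3b went together in part, since Reg3b was detected in 72.3% of cells with Reg3a in control 2 and 31.2% of those in control 1, against 37.2% and 10.8% of cells without Reg3a. In cluster 10 these shares were 9 of 11 cells and 28.7% in control 2, and 43.4% and 11.9% in control 1.

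A few cells carried much of each gene. On the base side of cluster 10, which is zones 1 and 2 of that cluster, 79 cells of control 2 and 95 of control 1 were compared one by one. Reg3b had a median of 997 CPM and a highest value of 32331 CPM in control 2, with 8 cells at 0. It had a median of 102 CPM and a highest value of 25740.3 CPM in control 1, with 31 cells at 0. In each library 5 cells held at least 50% of the Reg3b UMIs of these cells. The highest cells of the libraries lay closer together than the medians. Reg1 had medians of 782 and 9412 CPM and highest values of 42561 and 70121 CPM in control 2 and control 1, and 6 and 18 cells held at least 50% of its UMIs.

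**Figure D4:**
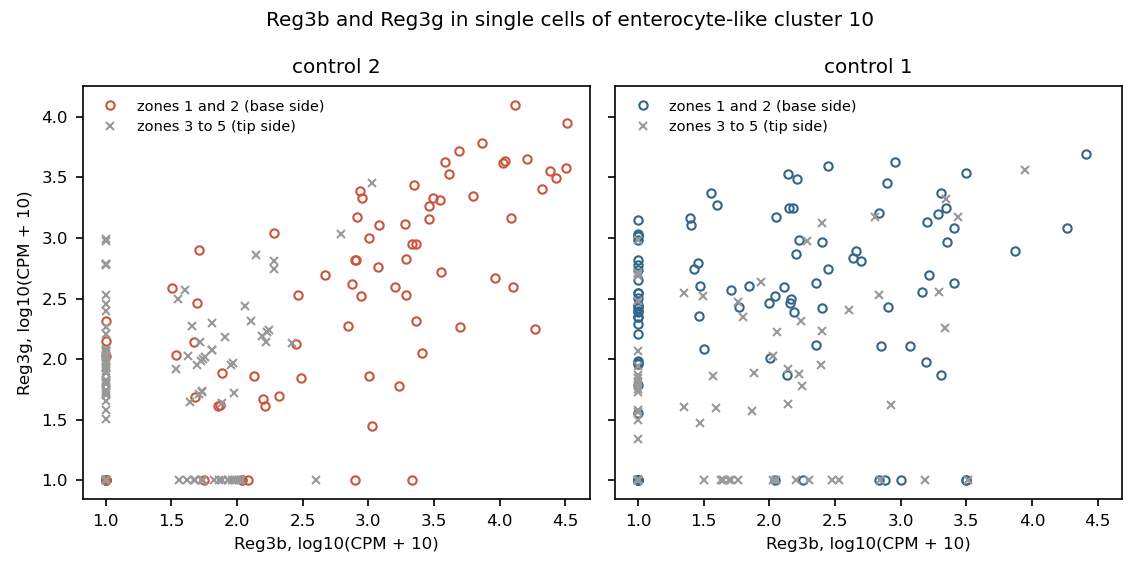
Reg3b against Reg3g in single cells of enterocyte-like cluster 10, both as log10(CPM + 10), with control 2 on the left and control 1 on the right; open circles are cells of zones 1 and 2 and grey crosses are cells of zones 3 to 5. Cells high in both genes are mostly on the base side, and control 1 has more base-side cells with no Reg3b (31 of 95) than control 2 (8 of 79).

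Reg4 had its own cells. It reached 11049.9 CPM in the 11 enteroendocrine-like cells of control 2 and 22965 CPM in the 24 of control 1, but it was not spread over them. In control 2, 2 cells had over 50 Reg4 UMIs, with 201 and 2961 UMIs. In control 1, 10 cells did, with 96 to 2334 UMIs and a median of 1275.5. All 12 expressed Tph1, the enzyme that makes serotonin in enterochromaffin cells, at 51 to 263 UMIs in control 2 and 47 to 260 in control 1. All 12 also expressed the granule gene Chga, at 228 to 860 and 50 to 596 UMIs. Gip, Cck, Ghrl and Sst, the hormone genes of other enteroendocrine types, did not exceed 1 UMI in any of them.

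The reverse was also seen. The 7 cells of control 2 and 11 of control 1 with at least 10 UMIs of Gip, Cck, Ghrl or Sst had no more than 1 Reg4 UMI each. Of the remaining cells, all with at least 5 Tph1 UMIs, 2 of 4 in control 2 and 3 of 13 in control 1 had no Reg4 UMI, so Tph1 alone did not mark the Reg4 cells.

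**Figure D5:**
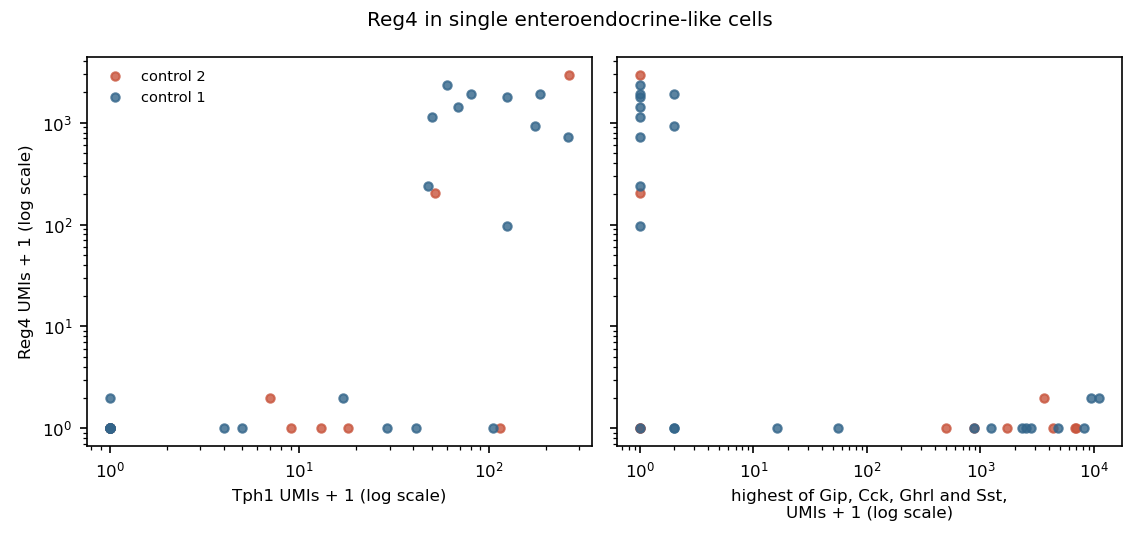
Reg4 UMIs in each enteroendocrine-like cell against its Tph1 UMIs on the left and against the highest of its Gip, Cck, Ghrl and Sst UMIs on the right, all as UMIs + 1 on log scales, for 11 cells of control 2 and 24 of control 1. The 12 cells with over 50 Reg4 UMIs all have at least 47 Tph1 UMIs and at most 1 UMI of the other hormone genes.

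Paneth-like cells were the other carriers of Reg4, at 375 CPM in control 2 and 725 CPM in control 1. A Reg4 UMI was found in 10 of 13 and 15 of 16 of them, and after thinning to 2000 UMIs in 70.0% of 10 cells and 81.2% of 16 cells. Goblet-like cells had 46.3 and 30.2 CPM in control 2 and control 1, progenitor-like cells 17.5 and 39.0 CPM, enterocyte-like cells 6.03 and 5.45 CPM, and T or NK-like cells 3.29 and 5.82 CPM. Enterocyte-like cells were thus close to the T or NK-like level, with 45 of their 69 Reg4 UMIs in 1 cell of control 2, and goblet-like cells were above it in both libraries.

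The genes most like each member were found by the Pearson correlation of log2(CPM + 1) over 34 points, 17 clusters in 2 libraries, among 7989 genes. Reg1 was most like Slc26a6, an anion exchanger, and Sis, the sucrase-isomaltase of the brush border (r = 0.94 for each), then Prap1, Cyp2c66 and Cyp3a25 (0.92). Reg3a was most like Aldh1a1, a retinal dehydrogenase, Adh6a, Sult1b1 and Fabp1 (0.95 to 0.96). Reg3b was most like Slc9a3, a sodium-hydrogen exchanger, and Reg3g (0.87 for each), then Vnn1, Apol10a and Ada, itself a tip landmark (0.83). Reg3g was most like Btnl1, a butyrophilin-like gene of enterocytes, and Hkdc1 (0.92 for each), then Rdh7, Pde9a and Mall. Reg4 was most like Myl7 (0.72), Dhx32, Csrp2, Rab15 and Phlda1. The points share library and depth, so these values are descriptions.

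Barcodes left out of the kept cells held Reg UMIs too. Those with 25% or more mitochondrial UMIs had 422 and 555 CPM of Reg1 and 325 and 47.7 CPM of Reg3b in control 2 and control 1, below the enterocyte-like levels. In control 1 a single such barcode had 547 of the 587 Reg4 UMIs of this set.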

How the data were processed

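The deposited matrices hold whole-number UMI counts per gene and barcode for 2 libraries. Per the file headers they were written by Cell Ranger 7.1.0, the submitters' processing notes name Cell Ranger 6.1 and 7.1.0 with GRCm38 and mm10, and the counting of intronic reads is not given in the sources used here. Members and gene lists were chosen with earlier results of these data known. From the counts, cells with at least 500 genes and under 25% mitochondrial UMIs were kept, and the barcodes marked by Scrublet (28 in control 2 and 5 in control 1) were removed; 5 is 0.0702% of the cells, so the caller did not work in control 1 and doublets remain. Leiden clustering (scanpy 1.11.5, resolution 1, 2000 variable genes, 40 components, 15 neighbours) used no Reg or list gene, and clusters were named from 106 fixed markers. The files give no cell types, so class shares depend on these rebuilt names. Counts were summed per library and class. The zone test used edgeR 4.0.16 (TMM, filterByExpr, Benjamini-Hochberg, threshold 0.05), with DESeq2 1.42.0 as an alternative. On simulated sums of 10338 genes for this comparison it found 53 of 100 genes changed 2-fold and 100 of 100 changed 4-fold, with 5 false calls. The simulation changed far fewer genes than were called in the data, gave all genes the same dispersion and cut no zones. Its false calls therefore do not give the error of the test on these data. Named were the members, up to 4 genes a list past the zone test with the largest change, and the 5 genes most like each member, of which 1 is not reported here; Tyk2, Lypd8, the IL-22 route in the libraries and the leading genes of clusters were added after their values were seen. The libraries are numbered 1 and 2 by their labels, and nothing states that they come from separate animals, so spreads between them may be technical. Protein sequences are not used here.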

Additional observations from a re-analysis of the deposited data

How the results depend on the processing

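Counting each cell equally lowered Reg1 in enterocyte-like cells, averaged over the 2 libraries, to 1773 CPM, against 4213 CPM from sums, and leaving out the deep cluster 10 lowered it to 1903 CPM. The Reg3b ratio of control 2 over control 1 was above 1 in each alternative over pooled enterocyte-like cells, but not in 3 of 5 zones of cluster 10 (0.193 to 0.903). It was 7.34 in cells under 10% mitochondrial UMIs, 6.60 from per-cell CPM, 5.54 after removal of the top 6% by doublet score, 8.22 as the median of the 5 zones, 5.38 with TMM factors, 7.97 without cluster 10 and 5.46 in cluster 10. The direction along the villus did depend on the cells. The log2 ratio of zones 4 and 5 over zones 1 and 2, as the mean of 2 libraries, was 0.72 for Reg1, -0.50 for Reg3a, 0.80 for Reg3b and -0.16 for Reg3g. It became -0.75 for Reg1, -0.53 for Reg3b and -1.02 for Reg3g with at least 20 landmark UMIs. It became -4.98, -4.49, -5.32 and -3.74 for Reg1, Reg3a, Reg3b and Reg3g in cluster 10, and -1.58, -3.06, -2.07 and -2.34 without the landmarks Apoa4 and 2200002D01Rik. Reg3a turned to 0.054 and Reg3g to 0.23 under 10% mitochondrial UMIs, Reg3g to 0.58 with per-cell CPM and to 0.97 without cluster 10. Reg3a ran from -1.23 to 0.24 when a library was left out. The cause of these turns was not tested. Over all enterocyte-like cells the excess of Reg3g detection in cells with Reg3b, 31.3 percentage points, was 24.0 at 1000 UMIs and 34.0 unthinned. The zone test gave 3137 genes higher and 2411 lower with the library as a replicate block and 1940 and 940 without it. DESeq2 gave 1901 higher, cluster 10 alone gave 998 higher and 1319 lower, and the other clusters gave 2007 higher. Of the list genes named, Tlr3 turned to -1.62 in cluster 10, and Duox2 to -0.074 under 10% mitochondrial UMIs. Duox2 ran from -0.23 without control 2 to 1.54 without control 1. Without the block, Stat3, Il18, Nlrp6, Traf6 and Tlr3 kept their directions and lost the call (edgeR adjusted p = 0.0704, 0.0557, 0.0972, 0.0734 and 0.0980), as did Zg16 and Duox2 (0.0530 and 0.447). Settings on cluster 10, the 2 landmarks and the fixed score ranges were chosen after seeing the data. The number of cells limits the Paneth-like, enteroendocrine-like and tuft-like classes, which hold 8 to 24 cells a library.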
